A study of Mus musculus with 3 samples.

Results

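A set of 10 genes used as markers of the stellate, sinusoidal endothelial and biliary cells of liver was followed across 3 two-colour oligonucleotide arrays that set mouse liver RNA against mouse spleen RNA. The genes were taken by name from the platform annotation: Reln, Lrat, Ecm1 and Hgf for stellate cells, Clec4g, Fcgr2b and Dpp4 for sinusoidal endothelium, and Krt19, Sox9 and Epcam for biliary epithelium. They are represented by 15 of the 16281 probes in the table, each of them measured on every array. The 10 genes were read from a fit over 9803 genes.

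The liver and the spleen RNA were total RNAs purchased from a supplier, each under 1 catalogue number on all 3 arrays. Spleen was the green (Cyanine-3) and liver the red (Cyanine-5) channel on every array, and cRNA was made with 1 round of amplification. The sources used here give no strain, sex, age or number of mice for either RNA and do not say whether RNA lots, amplifications or only hybridizations were repeated, so errors and p-values cover only the variation from array to array, and this may be technical. No array had the dyes swapped, so for any probe dye bias and tissue cannot be told apart. The deposited values are log2 ratios, a scale on which 1 is a 2-fold difference, and an exact 0 was read as no measurement.

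Stellate cells lie between the sinusoids and the hepatocytes, store vitamin A as retinyl esters, and become matrix-producing cells in fibrosis. Sinusoidal endothelial cells line the liver's blood channels and take up waste molecules through lectin and Fc receptors. Biliary epithelial cells form the bile ducts and carry keratins and adhesion molecules of simple ductal epithelium. Each makes up a minor part of liver tissue, and in bulk RNA a difference in the number of such cells and a difference in RNA per cell cannot be told apart.

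The labels do not state the direction of the ratio. Positive values were read as higher in liver, which is likely, because a list of hepatocyte markers (11 genes) had medians of 4.84, 4.52 and 4.60 on arrays 1, 2 and 3 while a list of B cell markers (13 genes) had medians of -1.28, -1.60 and -1.11.

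Of the 10 marker genes, 6 passed limma's test toward liver and 1 toward spleen, at an adjusted p under 0.05. Among all 9803 genes, 25.3% passed toward liver and 27.4% toward spleen. The differences were small. The mean log2 ratios of the marker genes ran from -0.34 for Epcam to 1.20 for Ecm1, with a median of 0.50 against 0.02 over all genes. Ecm1 alone passed at 2-fold or more toward liver, where 9.21% of all genes did, and without array 1 its mean was 0.99. The classes were mixed: 3 stellate genes passed toward liver and 1 toward spleen, 2 endothelial genes passed toward liver, and 1 biliary gene passed toward liver.

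**Figure D1:**
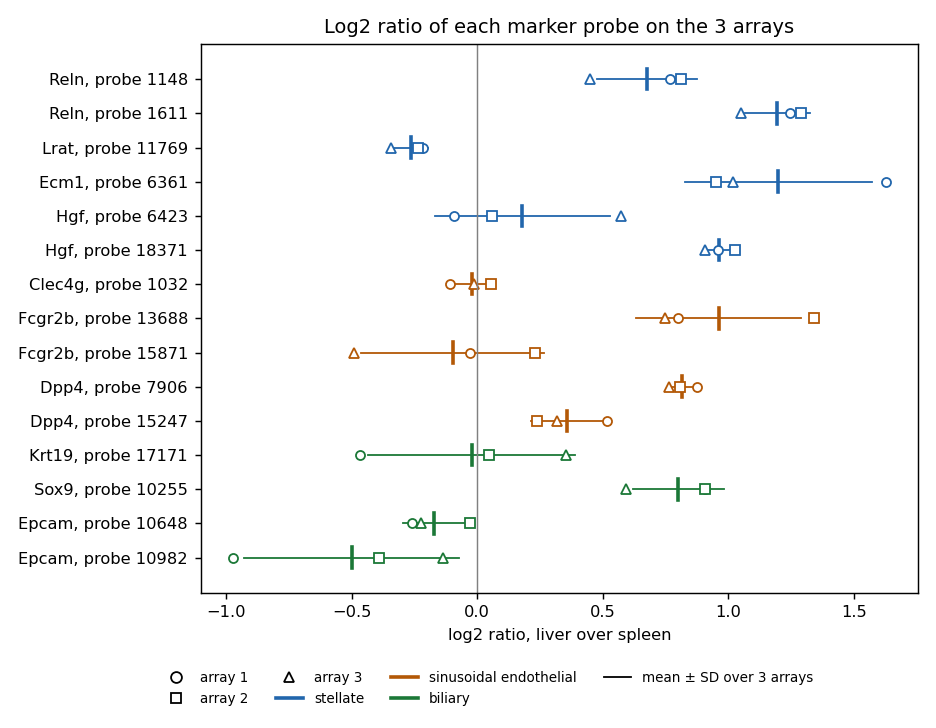
Log2 ratio of liver over spleen (horizontal axis) for each of the 15 marker probes, with an open symbol for each array, a vertical tick for the mean and a line for ± 1 SD over 3 arrays, coloured by cell type. All arrays lie above 0 for 8 probes, all lie below 0 for 3 probes, and 4 probes have arrays on both sides.

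**Figure D2:**
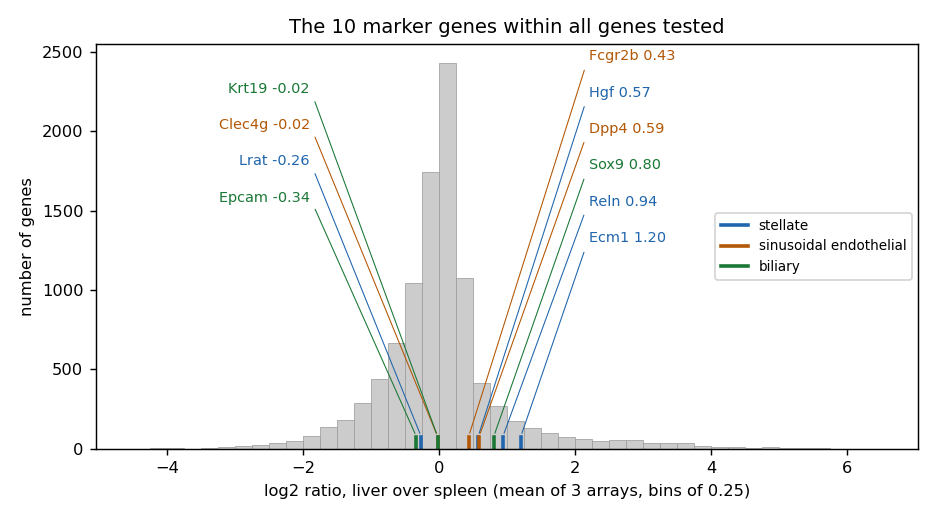
Histogram of the mean log2 ratio of the 9803 genes tested (vertical axis, number of genes, in bins of 0.25), with the 10 marker genes marked by coloured ticks and their means. The marker genes lie between -0.34 and 1.20, in a distribution that runs from -4.08 to 6.23. Ecm1, the highest, lies above 92.3% of the genes, and Epcam, the lowest, above 26.1%.

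Ordered by mean ratio, the genes ran Ecm1, Reln, Sox9, Dpp4, Hgf, Fcgr2b, Krt19, Clec4g, Lrat and Epcam. The ranges of the array values of neighbouring genes in this order overlapped in each case except Clec4g and Lrat. Compared within each array, Reln was above Sox9 and Sox9 above Dpp4 on all 3 arrays. The order of the other overlapping neighbours changed between arrays. Differences between genes were not tested.

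The stellate markers ranged from the highest ratio of the set, that of Ecm1, to the ninth of 10, that of Lrat. Ecm1, which encodes a secreted matrix glycoprotein, read 1.63, 0.95 and 1.02 on arrays 1, 2 and 3. All arrays were well above 0 and array 1 was the highest. Its mean of 1.20 ± 0.37 (SD, n = 3) is a 2.30-fold ratio toward liver (adjusted p = 0.00152), and 92.3% of the genes tested had a lower ratio. The part of hepatocytes or other cell types in the Ecm1 ratio was not tested.

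Reln encodes reelin, a large secreted glycoprotein best known for guiding neuron migration and also made by hepatic stellate cells. Averaged over its 2 probes it read 1.01, 1.05 and 0.75. Array 3 was the lowest, and no array approached 0. The mean was 0.94 ± 0.16 (SD, n = 3), a 1.91-fold ratio (adjusted p = 0.00063), with 90.2% of genes lower.

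Hgf encodes hepatocyte growth factor, which stellate and other mesenchymal cells secrete and which acts on hepatocytes and ductal cells through the receptor Met. Averaged over its 2 probes it read 0.43, 0.54 and 0.74, all above 0. The mean was 0.57 ± 0.16 (SD, n = 3), a 1.49-fold ratio (adjusted p = 0.00386), with 85.2% of genes lower.

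Lrat went the other way. It encodes lecithin retinol acyltransferase, the enzyme that makes retinyl esters for storage, and is widely used to mark stellate cells. Its single probe read -0.22, -0.23 and -0.34, a tight group just below 0. The mean was -0.26 ± 0.07 (SD, n = 3), a 1.20-fold ratio toward spleen (adjusted p = 0.0335). It did not pass without any 1 of the arrays, with means of -0.29, -0.28 and -0.23 without arrays 1, 2 and 3 and adjusted p-values from 0.0948 to 0.118.

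The sequences before the annotated starts of 3 stellate markers are shown because these genes were assigned to the same cell type and lay on both sides of 0. They are the 250 bases before the start in RefSeq (GRCm38.p6), on the strand of the gene. Capitals mark TATAAA (the TATA box), GGGCGG (the GC box) and CCAAT (the CCAAT box), each searched on both strands, so that reverse complements are also in capitals. None of these motifs contains another.
Reln (chr5:22344706-22344955, minus strand): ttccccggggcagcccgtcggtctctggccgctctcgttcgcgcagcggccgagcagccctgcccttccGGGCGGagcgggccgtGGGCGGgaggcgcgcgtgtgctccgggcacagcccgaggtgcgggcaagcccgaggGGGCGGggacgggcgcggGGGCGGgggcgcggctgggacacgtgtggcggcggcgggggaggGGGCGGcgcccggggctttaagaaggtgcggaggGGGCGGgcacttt
Hgf (chr5:16553245-16553494, plus strand, the first of 2 listed starts): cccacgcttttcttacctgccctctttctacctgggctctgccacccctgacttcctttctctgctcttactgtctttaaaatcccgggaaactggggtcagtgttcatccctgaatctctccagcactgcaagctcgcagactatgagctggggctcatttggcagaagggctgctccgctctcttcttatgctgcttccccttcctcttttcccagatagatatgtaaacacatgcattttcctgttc
Lrat (chr3:82903975-82904224, minus strand): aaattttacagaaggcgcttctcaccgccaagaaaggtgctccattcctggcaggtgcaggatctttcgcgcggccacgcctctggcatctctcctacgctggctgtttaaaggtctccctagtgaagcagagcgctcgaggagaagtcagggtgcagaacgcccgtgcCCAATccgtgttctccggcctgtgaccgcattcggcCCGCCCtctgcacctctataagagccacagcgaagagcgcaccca

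The window of Reln is 80.0% G and C, above 98.8% of the 32851 windows in the table, and holds GC boxes. The window of Lrat is 59.2% G and C and holds a GC box and a CCAAT box. That of Hgf is 50.8% G and C, near the table's median of 52.4%, and holds none of the 3 motifs. The window of Ecm1, the other stellate marker, is not shown. It is 54.0% G and C and holds a GC box and a TATA box. Among all windows of this length, 32.7% hold a GC box, 33.8% a CCAAT box and 12.4% a TATA box. Across the marker genes 8 had a window, 9 windows in all, and G and C content ranged from 43.6% for Dpp4 to that of Reln. A GC box was found in 4 of the 9 windows (Reln, Lrat, Ecm1 and Epcam), a TATA box in 3 (Ecm1, Clec4g and Dpp4) and a CCAAT box in that of Lrat. The genes that passed toward liver thus included both the most G and C rich window (Reln) and the least (Dpp4). A match is a run of letters, counted at any position in the window and on either strand, and not evidence of factor binding.

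Of the sinusoidal endothelial markers, Dpp4 and Fcgr2b passed toward liver and Clec4g did not pass. Dpp4 encodes dipeptidyl peptidase 4 (CD26), a membrane protease that trims dipeptides from incretins and chemokines, and which is also found on the canalicular face of hepatocytes and on T cells. Averaged over 2 probes it read 0.70, 0.52 and 0.54, the closest agreement between arrays among the genes with 2 probes. The mean was 0.59 ± 0.10 (SD, n = 3), a 1.50-fold ratio (adjusted p = 0.00212), with 85.4% of genes lower. In the fixed lists, 10 of 11 tested hepatocyte markers passed toward liver and 9 of 15 T cell markers passed toward spleen. Over all genes tested, 25.3% passed toward liver and 27.4% toward spleen. The sign of the ratio was itself read from the hepatocyte list, so the direction of that list is not an independent result. The part of either cell type in the Dpp4 ratio was not tested.

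Fcgr2b encodes the inhibitory IgG receptor, by which sinusoidal cells clear small immune complexes and which B cells and macrophages also carry. It read 0.38, 0.78 and 0.13, and array 3 was close to 0. The mean was 0.43 ± 0.33 (SD, n = 3), a 1.35-fold ratio (adjusted p = 0.0443). The call was lost on leaving out array 1 (0.46, adjusted p = 0.107) or array 2 (0.26, adjusted p = 0.154), and with exact zeros kept as values (adjusted p = 0.0935). The related activating receptor Fcgr3 was on the spleen side at -0.93 ± 0.18 (adjusted p = 0.000762). The extracellular parts of these receptors are closely similar in mouse, and whether each probe separates them was not tested. Of 13 B cell markers 10 passed toward spleen and none toward liver, though the sign of the ratio was itself read from this list. Of 15 macrophage markers 12 passed toward spleen and 2 toward liver. Over all genes tested, 27.4% passed toward spleen and 25.3% toward liver. The part of B cells and macrophages in the Fcgr2b ratio was not tested.

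Clec4g encodes LSECtin, a C-type lectin of liver and lymph node sinusoidal endothelium. Its single probe read -0.11, 0.05 and -0.01, on both sides of 0. The mean was -0.02 ± 0.08 (SD, n = 3), with a 95% confidence interval from -0.22 to 0.17 (adjusted p = 0.826). An interval this narrow leaves out a 2-fold difference as read by this probe. The table holds no intensities, so it cannot be seen here whether the probe measured its transcript above background.

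Of the biliary markers only Sox9 passed. Sox9 encodes a transcription factor of ductal and progenitor cells, and its probe read 0.91, 0.91 and 0.59. Array 3 was the lowest and all 3 were far from 0. The mean was 0.80 ± 0.18 (SD, n = 3), a 1.74-fold ratio toward liver (adjusted p = 0.00134), with 88.7% of genes lower.

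Krt19, the type I keratin used to stain bile ducts, read -0.47, 0.05 and 0.35. The arrays disagreed in sign and spread more widely than for any other marker gene. The mean was -0.02 ± 0.41 (SD, n = 3), with an interval from -0.43 to 0.39 (adjusted p = 0.917).

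Epcam encodes an epithelial cell adhesion molecule of bile duct cells. Averaged over its 2 probes it read -0.61, -0.21 and -0.18, all below 0, with array 1 the lowest. The mean was -0.34 ± 0.24 (SD, n = 3), and it did not pass (adjusted p = 0.0521). With each array centred on its median the mean was -0.36 and it passed toward spleen (adjusted p = 0.0431), as it did with arrays scaled to the same spread (-0.33, adjusted p = 0.0464).

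Krt19, Sox9 and Epcam also mark the ducts of pancreas, which lies against the spleen. Of 20 pancreatic exocrine markers with a probe, 18 were tested. Of these, 10 passed toward spleen (55.6%, against 27.4% of all genes) and none toward liver (against 25.3%). Their means ran from -1.29 for the trypsin inhibitor Spink1 to 0.04 for chymotrypsinogen (Ctrb1), with a median of -0.36. Next after Spink1 toward spleen were the lipase relatives Pnliprp1 at -0.59 and Pnliprp2 at -0.59. The amylase gene Amy2a5 was listed at 0 on every array and colipase (Clps) was not measured on array 2. The part of pancreatic RNA in the ratios of the biliary markers was not tested.

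For 5 marker genes (Reln, Hgf, Fcgr2b, Dpp4 and Epcam) 2 probes could be set against each other on each array. In 4 of these 5 pairs the probes differed in a limma test of their difference, against 38.0% of the 2902 pairs of probes for 1 gene across the table. Counted as probes rather than genes, 8 of 15 passed toward liver and 1 toward spleen, where 23.5% and 26.7% of the 14122 probes measured on all arrays did.

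The largest gap was within Fcgr2b. Probe 13688 read 0.80, 1.34 and 0.75 and passed toward liver (0.96 ± 0.33, adjusted p = 0.00287). Probe 15871 read -0.03, 0.23 and -0.49 and did not pass (-0.10 ± 0.36, adjusted p = 0.614). The gap of 1.06 ± 0.21 had the same sign on all arrays (adjusted p = 0.0026). The value for Fcgr2b as a gene is thus a mean of a probe near 2-fold and a probe near 0.

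For Hgf, probe 18371 read 0.96, 1.02 and 0.91, a mean of 0.96 ± 0.06 and a 1.95-fold ratio (adjusted p = 0.000343). Probe 6423 read -0.09, 0.06 and 0.57 and did not pass (0.18 ± 0.35, adjusted p = 0.341). The probes differed by 0.78 ± 0.39 (adjusted p = 0.0213), with the gap narrowest on array 3.

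Both probes of Reln passed toward liver. Probe 1611 read 1.25, 1.29 and 1.05 (1.20 ± 0.13, adjusted p = 0.000238) and probe 1148 read 0.77, 0.81 and 0.45 (0.68 ± 0.20, adjusted p = 0.00371). Their gap of 0.52 ± 0.07 was almost the same on each array (adjusted p = 0.0141).

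Both probes of Dpp4 passed as well. Probe 7906 read 0.88, 0.81 and 0.76 (0.82 ± 0.06, adjusted p = 0.000649) and probe 15247 read 0.52, 0.24 and 0.32 (0.36 ± 0.14, adjusted p = 0.0242). They differed by 0.46 ± 0.10 (adjusted p = 0.0236).

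The Epcam probes did not pass the test of their difference (adjusted p = 0.213). Probe 10982 read -0.97, -0.39 and -0.14 and probe 10648 read -0.26, -0.03 and -0.23, so the lower value of array 1 came mainly from the first of these. Neither passed by itself (adjusted p = 0.0563 and 0.163). With 1 array left out, the gap of Fcgr2b passed each time, that of Hgf did not pass without array 1 or 2, that of Reln without array 1 or 3, and that of Dpp4 without any 1 array.

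**Figure D3:**
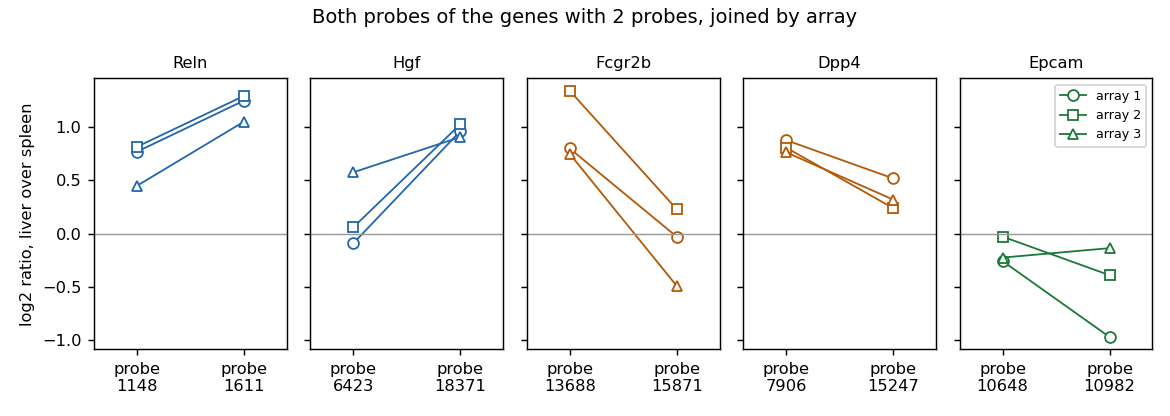
Log2 ratio of liver over spleen (vertical axis) of both probes of the 5 marker genes with 2 probes, 1 panel per gene, with lines joining the values of 1 array. The lines run the same way on all 3 arrays for Reln, Hgf, Fcgr2b and Dpp4. For Epcam, array 3 runs opposite to arrays 1 and 2.

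Other markers of the same cell types passed in both directions. Over all genes tested, 25.3% passed toward liver and 27.4% toward spleen. Of 28 tested stellate and portal fibroblast markers besides the members, 8 passed toward liver and 8 toward spleen, shares of 28.6% each, with a median of 0.08. Toward liver were the collectin Colec11 at 2.55 ± 0.22 and the small matrix proteoglycans decorin (Dcn) at 1.52 ± 0.09 and lumican (Lum) at 1.31 ± 0.27. Toward spleen were the collagen Col3a1 at -1.18 ± 0.07, smooth muscle actin (Acta2) at -0.88 ± 0.63 and Thy1, a surface protein of fibroblasts and T cells, at -0.88 ± 0.32.

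Of 34 tested sinusoidal and vascular endothelial markers, 8 passed toward liver (23.5%, against 25.3% of all genes) and 10 toward spleen (29.4%, against 27.4%). Their median was 0.04. The count toward liver was 5 without array 1 and 4 without array 2. The highest were the cytokine receptor Lifr, which hepatocytes also express, at 3.17 ± 0.12, the membrane-trafficking protein Ehd3 at 1.16 ± 0.09 and the phosphatase Ptprb at 0.67 ± 0.11. The value of Lifr is that of probe 15344 alone, while its other probe, 4826, read 0.32 and 0.04 on arrays 1 and 3 and had no value on array 2. The lowest were the adhesion molecule Icam2 at -1.71 ± 0.41, ficolin (Fcna) at -1.17 ± 0.16 and the lectin Cd209b at -1.13 ± 0.31. The part of cells other than endothelium in the ratios of Icam2, Fcna and Cd209b was not tested. Among widely used endothelial markers, Cdh5 (0.16) and Tie1 (0.05) did not pass. Others did, with Tek (-0.34), Sox17 (-0.51) and Plvap (-0.93) toward spleen and Emcn (0.44) toward liver. No probe named for Stab1, Stab2 or Lyve1 was used here.

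Of 32 tested biliary and ductal markers, 11 passed toward liver (34.4%, against 25.3% of all genes) and 7 toward spleen (21.9%, against 27.4%). Their median was 0.20. Without array 1 the count toward liver was 7, and without array 2 the count toward spleen was 4. The keratins Krt8 and Krt18 averaged 3.70 ± 0.21 and 2.65 ± 0.23, and the transcription factor Onecut1 2.59 ± 0.13, and all 3 genes are also expressed by hepatocytes. Toward spleen were the membrane linker ezrin (Ezr) at -3.16 ± 0.19, the annexin Anxa4 at -0.95 ± 0.37 and the collagen receptor Ddr1 at -0.71 ± 0.37. The part of cells other than biliary epithelium in the ratios of Ezr, Anxa4 and Ddr1 was not tested. For Anxa4, probe 4816 passed at -2.19 and probe 18398 did not pass at 0.28. Among ductal genes with values close to 0, Cftr was at 0.18 and Prom1 at 0.00, and neither passed.

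The partners of the marker genes were examined by pathway. For Hgf, 6 of 15 tested genes of its activation and signalling passed toward liver (40%, against 25.3% of all genes). Toward spleen were 3 (20%, against 27.4%). The related growth factor Mst1 averaged 3.34 ± 0.18, the activating protease Hgfac 2.90 ± 0.62 and clotting factor F12 1.69 ± 0.23. The urokinase receptor Plaur averaged -0.66 ± 0.08, the protease inhibitor Spint1 -0.52 ± 0.05 and urokinase (Plau) -0.44 ± 0.11. The probes of these 3 genes disagreed. For Spint1, probe 13802 passed toward spleen at -1.34 and probe 6722 toward liver at 0.29. One probe of Plaur passed at -0.99 and the other did not at -0.34, and for Plau 1 of 3 probes passed, at -1.19, with the others at 0.09 and -0.21. The receptor Met itself read 0.20, 0.00 and -0.15 and did not pass (adjusted p = 0.905).

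For Lrat, 8 of 18 tested genes of retinoid storage and transport passed toward liver (44.4%, against 25.3% of all genes). Toward spleen was 1 (5.56%, against 27.4%). Lrat itself lay toward spleen, a call lost on leaving out any 1 array. The count toward liver was 5 without array 2. The count toward spleen was 2 without array 1, and also with arrays centred or scaled. The retinal oxidizing enzyme Aldh1a1 averaged 2.92 ± 0.19, the retinoic acid hydroxylase Cyp26a1 2.51 ± 0.56 and the retinol dehydrogenase Rdh5 2.15 ± 0.47. Dgat1, an acyltransferase that can also esterify retinol, averaged 0.84 ± 0.02. Lipoprotein lipase (Lpl) was the gene toward spleen, at -1.65 ± 0.08. The retinol carriers Rbp4 and Ttr, together with Dgat2, Retsat and Rarb, were listed at 0 on every array.

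For Reln, 3 of 11 tested reelin signalling genes passed toward liver (27.3%, against 25.3% of all genes) and 1 toward spleen (9.09%, against 27.4%). Leaving out any single array left 1 gene toward liver, and the count toward spleen was 2 with probes measured on at least 2 arrays. The actin regulator Nckap1 averaged 1.33 ± 0.16, Cdk5r1 0.28 ± 0.11 and the integrin Itga3 0.26 ± 0.10. A second Itga3 probe read 0.22 and 0.06 on arrays 2 and 3 and had no value on array 1. The dynein regulator Pafah1b1 averaged -1.01 ± 0.13. The adaptor Dab1, which relays the reelin signal, averaged 0.14 ± 0.11 and did not pass. The receptor Vldlr read -0.79 and -0.19 on arrays 1 and 3 and had no value on array 2.

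For Fcgr2b, 11 of 15 tested genes of Fc gamma receptors and inhibitory signalling passed toward spleen (73.3%, against 27.4% of all genes). Btk, Cd22, Cd72 and Fcer2a are also in the B cell list from which the sign was read, so their direction is not independent. The neonatal Fc receptor Fcgrt was the gene toward liver at 1.38 ± 0.13 (6.67% of the list, against 25.3% of all genes). The kinase Btk averaged -4.01 ± 0.10, the B cell surface protein Cd72 -2.77 ± 0.19 and the kinase Syk -1.25 ± 0.35. The phosphatase Inpp5d, through which Fcgr2b signals, averaged -1.17 ± 0.07.

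Relatives of Dpp4 and Clec4g were split. Toward liver were 4 of 16 (25%, against 25.3% of all genes), and toward spleen 8 (50%, against 27.4%). The Kupffer cell lectin Clec4f averaged 1.62 ± 0.17, the asialoglycoprotein receptor subunit Asgr2 1.01 ± 0.11 and the peptidase Dpp3 0.62 ± 0.03. For Clec4f this is the mean of probe 1582 at 3.18 and probe 7529 at 0.05, and for Asgr2 of probe 7814 at 1.90 and probe 1290 at 0.12, and the lower probe of each did not pass. The myeloid lectins Clec4n, Clec7a and Clec4a2 averaged -2.25 ± 0.18, -1.54 ± 0.27 and -1.53 ± 0.37. The probes of Clec4a2 were at -2.86, -1.94 and 0.22, and the last of these did not pass. Among the peptidases, Dpp8 was toward spleen at -1.22 ± 0.19 and so was the fibroblast protease Fap at -0.52 ± 0.25. A second Fap probe read -0.55 and 0.06 on arrays 2 and 3 and had no value on array 1.

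**Figure D4:**
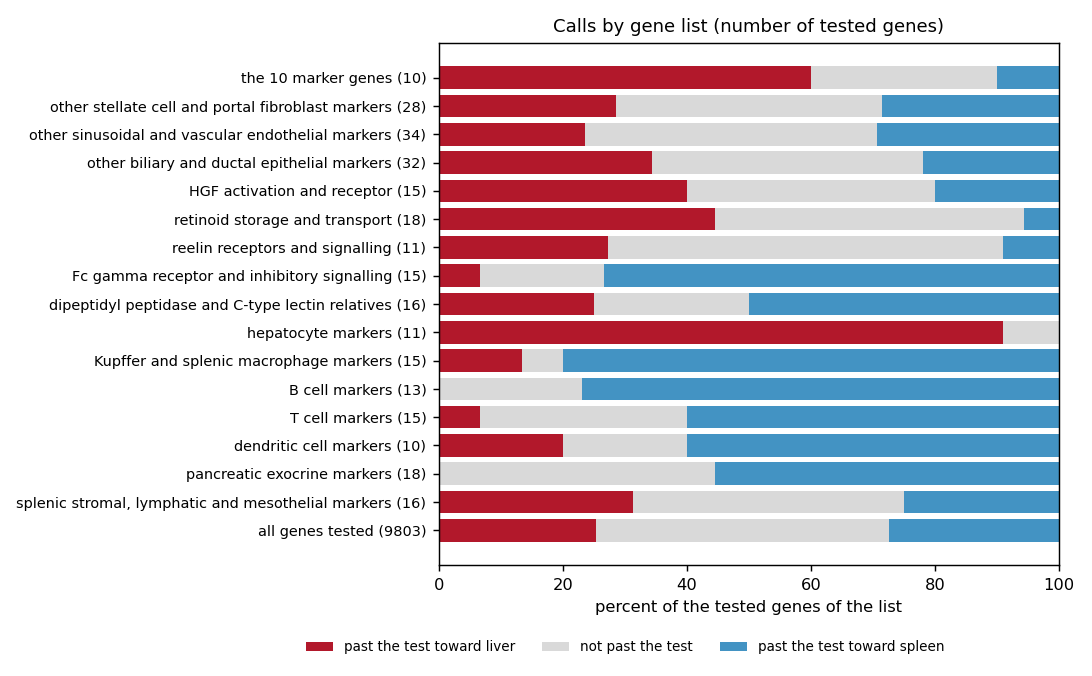
Percent of the tested genes of each list (horizontal axis) that passed the test toward liver, did not pass, or passed toward spleen, with the number of tested genes in brackets after each list name. The 10 marker genes stand at 60% toward liver and 10% toward spleen, and all genes at 25.3% and 27.4%.

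The lists of other cell types set the scale on which these values lie. Over all genes tested, 25.3% passed toward liver and 27.4% toward spleen. The sign of the ratio was read from the hepatocyte and B cell lists, so their directions are not independent results. The tested hepatocyte markers had a median of 4.86, led by Slco1b2 at 6.23, F2 at 5.70 and Pck1 at 5.22, with Ttr, Apoa1, Apoh and Serpinc1 listed at 0 on every array. On array 2 Slco1b2 read 6.64, which is the highest value of any probe on each array, so its mean may be a lower limit. B cell markers had a median of -1.38, led by Spib at -4.08. T cell markers had a median of -1.22 with Il7r lowest at -2.82, and 1 of them, Zap70, passed toward liver at 0.54. Macrophage markers had a median of -0.68 with Vcam1 at -3.35, and Clec4f and Cd5l were those toward liver. Dendritic cell markers had a median of -1.15, with 6 of 10 toward spleen, led by Cd83 at -2.75, and 2 toward liver (Xcr1 and Ccr7), a count of 0 without array 1 and of 1 without array 2 or array 3. Of 16 genes of splenic stroma, lymphatics and mesothelium, a list that also holds Fcgr2b, 5 passed toward liver and 4 toward spleen, with Madcam1 at 2.74 and Cxcl13 at -1.62 as the ends. For Cxcl13, probe 14212 was at -3.26 and probe 10504 at 0.02, and for Xcr1 a second probe read 0.05 and 0.11 on arrays 2 and 3.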

How the data were processed

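Per the labels, 3 arrays each carried spleen RNA in Cyanine-3 and liver RNA in Cyanine-5. The deposited values are log2 ratios of the channels, 1 per probe and array. The log base was taken from the values, whose highest on each array is the log2 of 100. For background correction, dye normalization, filtering and genome build, the method is not given in the sources used here. No intensities were used. Exact zeros (1414, 1098 and 1137 probes on arrays 1, 2 and 3) were read as no measurement. The medians of the other values were 0.02, 0.04 and 0.01.

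Of 16281 probes, 13738 had 1 gene symbol in the platform annotation, 52 had several and 2491 had none. Entrez numbers matched a RefSeq gene table for 13694, and no symbol changed. Probes of a gene measured on all 3 arrays were averaged, which left 9803 genes. Each gene, each probe and each difference between 2 probes of a gene was compared with 0 by limma (version 3.58.1, R 4.3.3; intercept only, moderated variance, two-sided, Benjamini-Hochberg over all features of that fit). The gene fit had 3.38 prior degrees of freedom. The scripts were tested on simulated data.

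The marker genes, the 15 other gene lists and the tests were chosen with earlier results of these data known. Lists overlap and were given no set test. From each list up to 3 genes past the test in each direction were named, with those listed at 0 on every array. Cdh5, Tie1, Cftr, Prom1, Met, Dgat1, Dab1, Vldlr, Inpp5d, Fcgr3, Dpp8, Fap, Ctrb1 and Clps were named after their values were seen. So were Tek, Sox17, Plvap and Emcn. The lists of other cell types are given by fewer genes. The promoter windows were chosen after the values were seen. Alternatives were exact zeros kept, arrays centred or scaled, probes measured on at least 2 arrays, probes with several symbols included, robust moderation, each array left out, and probes tested singly. Depth has no meaning for arrays, whose number limits the precision.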

Additional observations from a re-analysis of the deposited data

How the results depend on the processing

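Reln, Ecm1, Hgf, Dpp4 and Sox9 passed toward liver under each of the 9 alternatives to the gene fit, with means from 0.49 (Hgf) to 1.32 (Ecm1). The members toward liver numbered 5 or 6 throughout. The members toward spleen numbered 2 with arrays centred or scaled to the same spread, and from 0 to 0 with each array left out, since Lrat was then lost. All 9 of these average the probes of a gene. Taken by itself, probe 15871 of Fcgr2b was at -0.10, on the other side of 0 from the mean of the gene. Probe 6423 of Hgf did not pass limma's test by itself (0.18, adjusted p = 0.341), while probe 18371 did. The pairs of probes that differ, 1102 in all, ranged from 706 to 941 with each array left out. With each array left out, endothelial markers toward liver ranged from 4 to 7, biliary markers toward liver from 7 to 8 and those toward spleen from 4 to 5. The cause of these changes was not tested. The absence of intensities limits what a ratio near 0 can show, as for Clec4g and Krt19.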
